A study of Homo sapiens with 18 samples.

Results

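The genes described here encode the machinery that moves new proteins into the endoplasmic reticulum (ER), folds and glycosylates them there, and carries them on to the Golgi in coated vesicles. They were taken by symbol from the deposited table of new RNA: signal recognition particle (SRP) and SRP receptor subunits, SEC61 channel and translocon-associated (TRAP) subunits, oligosaccharyltransferase subunits, ER chaperones and disulfide isomerases, and the COPII and COPI coats with the p24 cargo receptors. Of the 66 protein-coding genes that the naming rule gives, 60 had values, among 12755 gene IDs in the table. All 60 passed the filter of a mean of at least 10 units over the 18 libraries, which 10191 gene IDs passed. SRP19, TMED7, TMED7-TICAM2, PDIA2, TMED6 and COPZ2 had no values. The 60 were 7 SRP and receptor genes, 10 translocon and TRAP genes, 6 oligosaccharyltransferase genes, 9 chaperone and isomerase genes, 11 COPII, 8 COPI and 8 p24 genes, and SSRP1. The p24 genes were counted by their TMED symbols, which includes TMED8, a gene set aside in the split by site of synthesis below. SSRP1, a subunit of the histone chaperone FACT, shares only the first letters of the TRAP names, SSR1 to SSR4, and is given apart.

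The cells were MDA-MB-453, an established human breast cancer line of luminal type. One set received the degrader JQ1-VHL for 3 hours and the other DMSO, and both had 0.1 mM 4-thiouridine in the medium for the last 60 minutes. Nuclear, cytoplasmic and total polyadenylated RNA were each sequenced in 3 libraries per treatment, which makes 6 groups of 3. The sample titles of the treated libraries write the drug as dBET, while the series calls it JQ1-VHL, and the second name is used here. JQ1-VHL joins the BET bromodomain ligand JQ1 to a ligand of the VHL ubiquitin ligase and so removes BET proteins, which act in transcription. It acts on the proteins, so no transcript level in these data checks the treatment.

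As background, SRP binds the signal sequence of a nascent secretory or membrane protein and brings the ribosome to its receptor on the ER, where the chain enters the SEC61 channel. Glycans are attached by the oligosaccharyltransferase, and chaperones and isomerases such as HSPA5 (BiP) and P4HB fold the chain and form its disulfide bonds. COPII coats bud vesicles towards the Golgi, COPI coats return escaped ER proteins, and p24 proteins sort cargo in both directions. Many of these genes are induced when unfolded proteins build up in the ER, through the transcription factors XBP1, ATF6 and ATF4. Messenger RNAs of secretory and membrane proteins are themselves translated on the ER, while those of SRP and coat subunits are translated on free ribosomes. Digitonin opens the plasma membrane, and ER membrane can stay with the pelleted nuclei.

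Values are T-to-C reads, the reads that carry the mark of 4-thiouridine, scaled by the authors to added ERCC RNA and summed per gene, and are called units. The libraries held 1.58 M to 6.77 M such reads, and 1 read was worth 0.470 to 2.75 units. Because that scale differed so much between replicates, values are also given rescaled, that is, divided by 1 factor per library from 7799 genes with reads in every library. The median log2 change of all tested genes in nuclear RNA was -1.82 on the ERCC scale and -0.01 after rescaling. Rescaled nuclear changes are thus relative to the typical gene. The rescaled median was 0.05 in cytoplasmic RNA and -0.19 in total RNA, so total changes are not centred on the typical gene. GEO's labels do not say whether replicates came from separate cultures, so p-values measure the spread between these samples. On the ERCC scale the spread used for a gene came almost wholly from the trend over all tested genes and all 6 groups. It was thus not mainly that gene's own spread in the libraries compared. Changes are log2(value + 1) differences, given as estimate ± SE, and a gene is called at a limma adjusted p under 0.05 over all 10191 genes. No library was made without 4-thiouridine, so the T-to-C reads that unlabelled RNA gives were not measured. The luminal markers GATA3, ERBB2 and KRT8 had new RNA in DMSO total RNA, at 2078 to 9935, 3416 to 11149 and 4358 to 17304 units per library. Of 8 markers of other lineages, PTPRC, CD3E, PECAM1, COL1A2, KRT5 and KRT14 had no values, ALB had 15.7 to 35.8 units and COL1A1 194 to 1035.

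Some libraries stood apart for these genes. The genes were split by where their protein is made: 31 encode proteins made on the ER and 24 encode cytosolic SRP and coat subunits. The other 5 were set aside: the tail-anchored SEC61B and SEC61G, and SRPRA, TMED8 and SSRP1. The split was chosen after the values were seen and is used as a description. Relative to each gene's mean over the 18 libraries, the median log2 level of the 31 was -2.12 in JQ1-VHL cytoplasmic replicate 3, against -0.583 and -0.630 in the other JQ1-VHL cytoplasmic libraries. It was -1.48 in DMSO cytoplasmic replicate 2, against -0.631 and -0.765 in the other DMSO ones. In the nucleus it was 1.21 in JQ1-VHL replicate 3, against 0.571 and 0.499 in the other 2. For the 24 cytosolic subunits, JQ1-VHL cytoplasmic replicate 3 was the highest of its group, at 0.808 against 0.539 and 0.571. JQ1-VHL nuclear replicate 3 also had the fewest reads of all libraries, 1.58 M. How far fractionation or depth moved these levels was not tested, and the counts they move are also given without them.

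**Figure D1:**
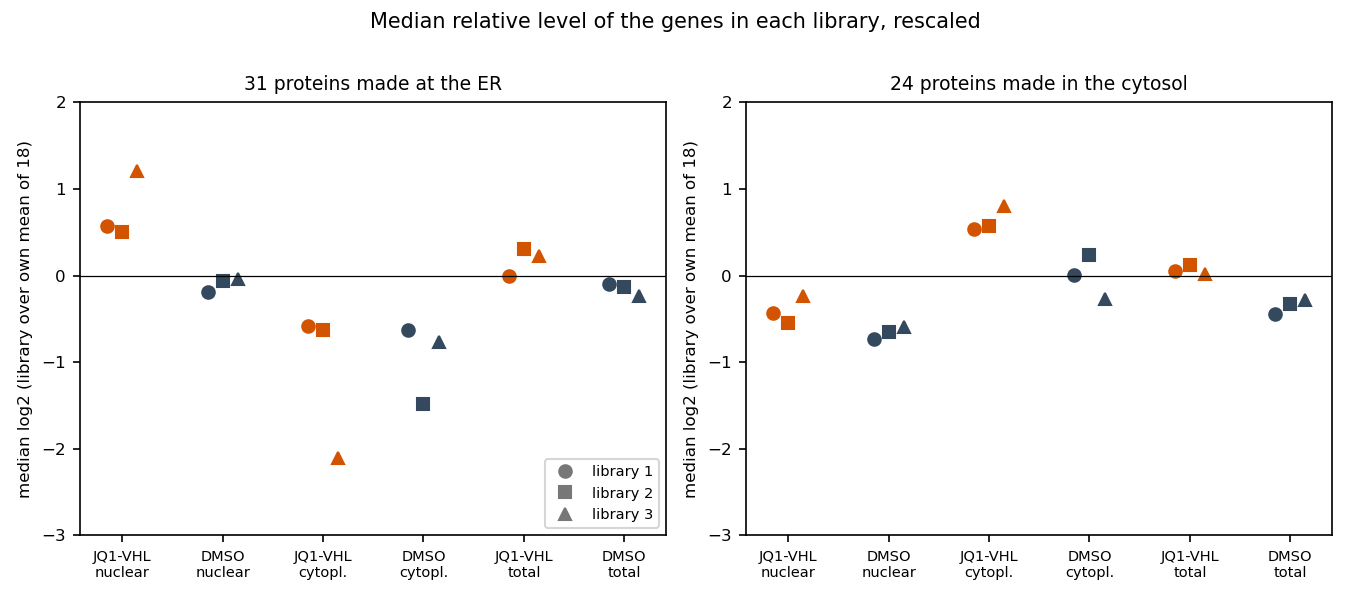
Median over genes of the rescaled log2 level in a library relative to the gene's own mean over 18 libraries, for 31 genes of proteins made at the ER (left) and 24 genes of cytosolic SRP and coat subunits (right); each point is 1 library, with JQ1-VHL in orange and DMSO in dark grey. JQ1-VHL cytoplasmic library 3 is lowest on the left, at -2.12, and highest on the right, at 0.808.

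In nuclear RNA the first question is how JQ1-VHL changed the new RNA of these genes in that fraction. ER membrane can stay with the nuclei, so RNA inside nuclei and exported RNA on the ER cannot be told apart here. As a share of all units of a library, the 60 genes made up 2.83%, 2.84% and 3.57% in JQ1-VHL nuclei, against 1.85%, 2.04% and 2.26% in DMSO nuclei. That is 3.08 ± 0.423% and 2.05 ± 0.207% (SD, n = 3 each), and the groups did not overlap. Chaperones and isomerases alone held 1.44% to 1.65% of the units under JQ1-VHL, against 0.852% to 0.917% under DMSO. The share of the COPI subunits went the other way, with 0.0352% to 0.0597% under JQ1-VHL and 0.0864% to 0.0905% under DMSO. A share can rise while the ERCC-scaled value falls, so both scales follow.

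On the ERCC scale all 60 estimates were negative, with a median of -1.43 against -1.82 over all tested genes. ERCC RNA was added per mass of RNA in each fraction, so a fall is relative to that mass and is not an amount per cell. In bulk libraries a smaller share of labelled cells and less new RNA in each labelled cell cannot be told apart. Of the 60, 9 fell and 0 rose by the test, where 33.7% of all tested genes were called lower and 0.177% higher. The 9 were SRP9, SEC61G, SSR2, DDOST, PDIA4, SEC23IP, COPA, COPG1 and SSRP1. None of the 9 calls held without JQ1-VHL nuclear replicate 3 or without DMSO nuclear replicate 1, settings in which 2.24% and 2.95% of all genes were called lower. With the replicate number as a block 12 fell, the added ones being ARCN1, COPB1 and TMED9, where 41.6% of all tested genes were called lower. After rescaling 18 rose and 1 fell, with a median of 0.44 against -0.01 over all tested genes, where 18.2% of all tested genes were called higher and 12.5% lower. Without JQ1-VHL nuclear replicate 3, and likewise without DMSO nuclear replicate 1, 9 rose and 1 fell, where 12.2% and 12.4% of all genes were called higher. Those settings called 7.4% and 6.6% of all genes lower. In both settings the calls lost were those of SRP54, SEC61A2, SEC63, RPN2, CALR, PDIA6, SAR1A, SEC24C and TMED10. With the block 20 rose and 2 fell after rescaling, adding COPZ1 and TMED3 as higher and COPA as lower. That fit called 19.8% of all tested genes higher and 14.4% lower. Every gene that rose after rescaling had a negative estimate on the ERCC scale, so direction rests on the scale.

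**Figure D2:**
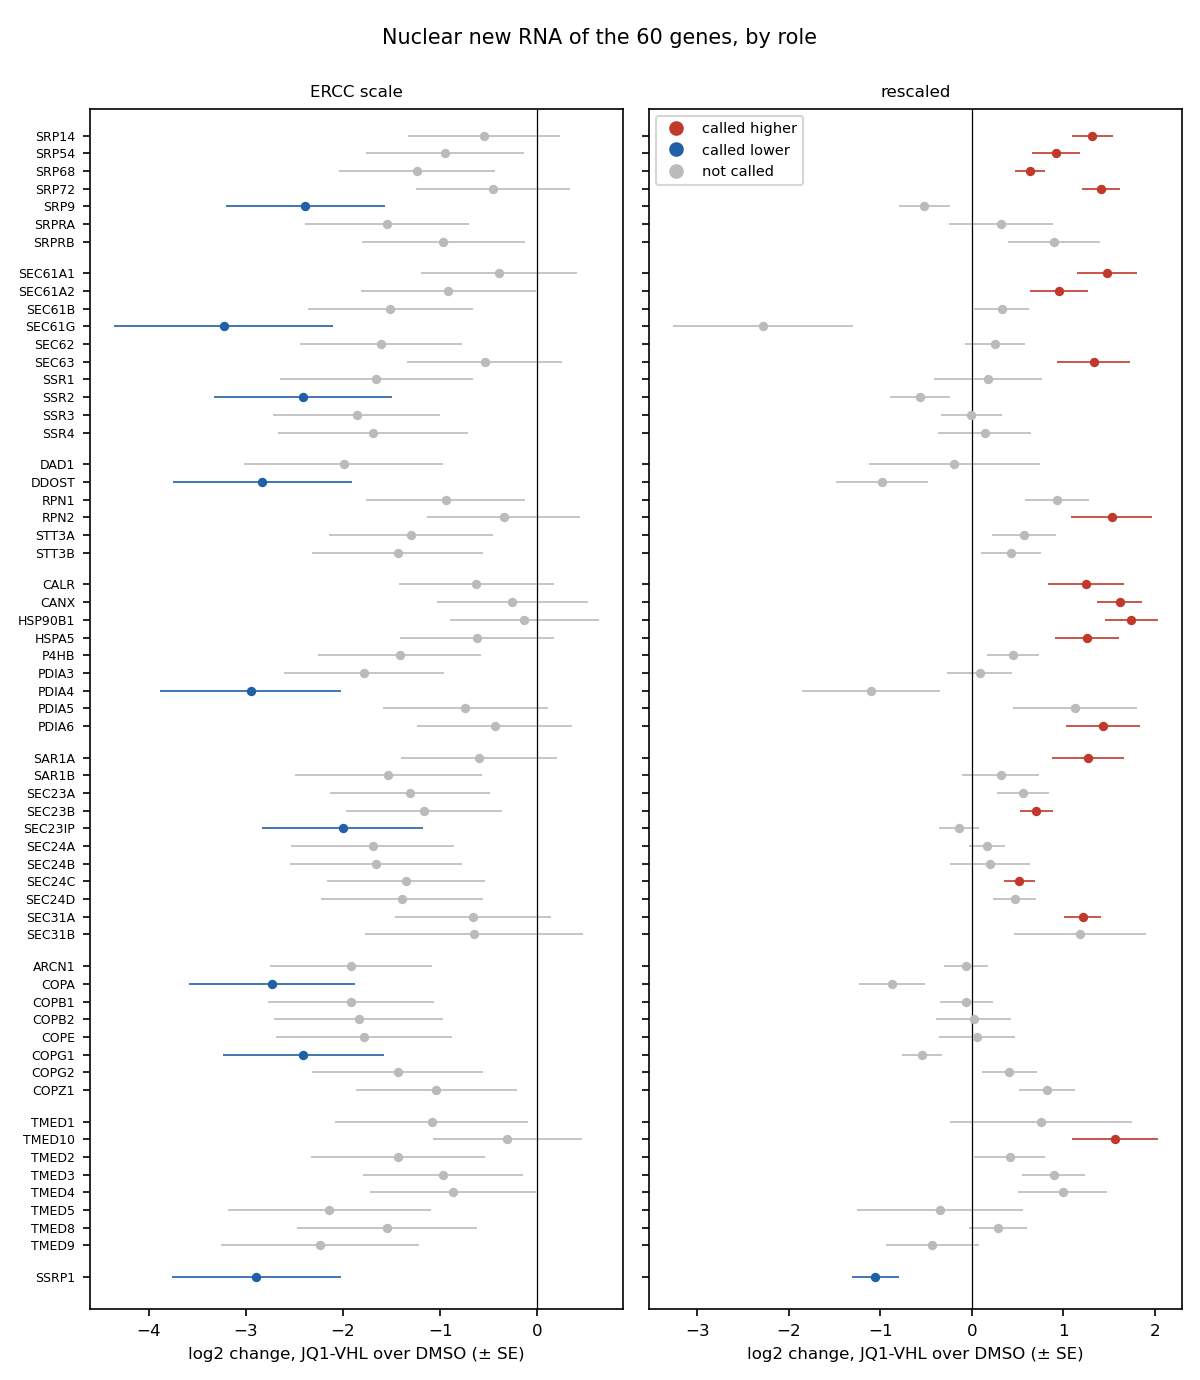
Log2 change of nuclear new RNA, JQ1-VHL over DMSO, for the 60 genes grouped by role from SRP (top) to SSRP1 (bottom), on the ERCC scale (left) and rescaled (right); points are limma estimates, bars are 1 SE, and colour marks a call at an adjusted p under 0.05. All points lie below 0 on the left with 9 called lower, and on the right 18 are called higher and 1 lower.

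Among the SRP and receptor genes 4 of 7 rose in the nucleus after rescaling and 0 fell, with a median of 0.90, while on the ERCC scale the median was -0.97 and 1 fell. SRP54, the GTPase subunit that holds the signal sequence, had 586, 621 and 1152 rescaled units in the JQ1-VHL nuclear libraries, against 317, 383 and 508 in the DMSO ones. All 3 SRP54 values under JQ1-VHL lay above the DMSO values, and the log2 change was 0.92 ± 0.26 rescaled (adjusted p = 0.0134) and -0.95 ± 0.82 on the ERCC scale (adjusted p = 0.312). SRP14, which with SRP9 forms the part of SRP that pauses elongation, had 1411, 1353 and 1512 in the JQ1-VHL nuclear libraries, against 439.5, 702 and 603 in the DMSO ones. All 3 SRP14 values under JQ1-VHL lay above the DMSO values, and the log2 change was 1.32 ± 0.23 rescaled (adjusted p = 0.000415) and -0.55 ± 0.78 on the ERCC scale (adjusted p = 0.527). SRP68 and SRP72, a pair that binds the SRP RNA, had 0.63 ± 0.16 (adjusted p = 0.00738) and 1.41 ± 0.21 (adjusted p = 0.000124) rescaled. SRPRA, the receptor subunit that binds SRP, had 472, 414 and 729 in the JQ1-VHL nuclear libraries, against 395, 428 and 436 in the DMSO ones. The SRPRA values of the groups overlapped, and the log2 change was 0.32 ± 0.57 rescaled (adjusted p = 0.695) and -1.55 ± 0.84 on the ERCC scale (adjusted p = 0.122). SRPRA overlaps FOXRED1 and FAM118B on the other strand, and the strand counted is not stated. SRP9 was the SRP gene called on the ERCC scale. SRP9, the partner of SRP14, had 306, 409 and 146 ERCC-scaled units in the JQ1-VHL nuclear libraries, against 1860, 1055 and 1349 in the DMSO ones. The SRP9 change was -2.39 ± 0.81 on the ERCC scale (adjusted p = 0.0187) and -0.52 ± 0.28 rescaled (adjusted p = 0.163).

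Of the 10 translocon and TRAP genes 3 rose in the nucleus after rescaling and 0 fell, with a median of 0.21; on the ERCC scale 2 fell and the median was -1.63. SEC61A1, the pore-forming subunit of the channel, had 4094, 3970 and 6509 in the JQ1-VHL nuclear libraries, against 1387, 1748 and 2018 in the DMSO ones. All 3 SEC61A1 values under JQ1-VHL lay above the DMSO values, and the log2 change was 1.48 ± 0.33 rescaled (adjusted p = 0.00283) and -0.39 ± 0.80 on the ERCC scale (adjusted p = 0.654). SEC61A1 overlaps MGLL and RUVBL1 on the other strand. SEC61B, a small tail-anchored subunit of the channel, had 92.4, 70.3 and 113 in the JQ1-VHL nuclear libraries, against 52.8, 93.8 and 75.0 in the DMSO ones. The SEC61B values of the groups overlapped, and the log2 change was 0.33 ± 0.30 rescaled (adjusted p = 0.425) and -1.51 ± 0.85 on the ERCC scale (adjusted p = 0.133). SEC61G, the other small subunit, had 7.45, 7.75 and 0 ERCC-scaled units in the JQ1-VHL nuclear libraries, against 47.5, 28.6 and 41.4 in the DMSO ones. These were few reads, 26 in all under JQ1-VHL against 197 under DMSO. The SEC61G change was -3.23 ± 1.13 on the ERCC scale (adjusted p = 0.0212) and -2.28 ± 0.99 rescaled (adjusted p = 0.0845). The other rescaled calls were SEC61A2, a second pore gene, and SEC63, a J-domain protein that brings HSPA5 to the channel, at 0.95 ± 0.32 and 1.33 ± 0.40. None of the 4 TRAP genes, SSR1 to SSR4, was called after rescaling, with estimates of -0.57 to 0.17.

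Of the 6 oligosaccharyltransferase genes 1 rose after rescaling and 0 fell, with a median of 0.50, and on the ERCC scale 1 fell and the median was -1.37. RPN2, ribophorin II, had 6598, 6371 and 11889 in the JQ1-VHL nuclear libraries, against 2286, 2833 and 3226 in the DMSO ones. All 3 RPN2 values under JQ1-VHL lay above the DMSO values, and the log2 change was 1.53 ± 0.45 rescaled (adjusted p = 0.0153) and -0.35 ± 0.79 on the ERCC scale (adjusted p = 0.689). RPN1, ribophorin I, had 1510, 1369 and 2391 in the JQ1-VHL nuclear libraries, against 798, 943 and 952 in the DMSO ones. All 3 RPN1 values under JQ1-VHL lay above the DMSO values, and the log2 change was 0.93 ± 0.35 rescaled (adjusted p = 0.0523) and -0.94 ± 0.82 on the ERCC scale (adjusted p = 0.314). STT3A, the catalytic subunit that works beside the channel, had 694, 650.0 and 1239 in the JQ1-VHL nuclear libraries, against 452, 616 and 614 in the DMSO ones. All 3 STT3A values under JQ1-VHL lay above the DMSO values, and the log2 change was 0.57 ± 0.35 rescaled (adjusted p = 0.227) and -1.30 ± 0.84 on the ERCC scale (adjusted p = 0.188). DDOST, another core subunit of the enzyme, was called lower on the ERCC scale. DDOST, also known as OST48, had 101, 128 and 19.0 ERCC-scaled units in the JQ1-VHL nuclear libraries, against 811, 359 and 323 in the DMSO ones. All 3 JQ1-VHL values lay below the DMSO values, and the DDOST change was -2.83 ± 0.92 on the ERCC scale (adjusted p = 0.0145) and -0.98 ± 0.50 rescaled (adjusted p = 0.139).

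Of the 9 chaperone and isomerase genes 5 rose after rescaling and 0 fell, with a median of 1.25; on the ERCC scale the median was -0.63 and 1 fell. HSPA5, the BiP chaperone of the ER lumen, had 7686, 7062 and 7927 in the JQ1-VHL nuclear libraries, against 3024, 3277 and 3194 in the DMSO ones. All 3 HSPA5 values under JQ1-VHL lay above the DMSO values, and the log2 change was 1.25 ± 0.35 rescaled (adjusted p = 0.0118) and -0.62 ± 0.79 on the ERCC scale (adjusted p = 0.489). HSP90B1, the HSP90 of the ER, GRP94, had 18531, 19296 and 32265 in the JQ1-VHL nuclear libraries, against 6454, 6700 and 7161 in the DMSO ones. All 3 HSP90B1 values under JQ1-VHL lay above the DMSO values, and the log2 change was 1.74 ± 0.29 rescaled (adjusted p = 0.000292) and -0.13 ± 0.77 on the ERCC scale (adjusted p = 0.874). JQ1-VHL replicate 3 was far above the other 2 for HSP90B1 and for the next 2 genes, and close to them for HSPA5. CANX, the membrane-bound lectin chaperone calnexin, had 10793, 9641 and 18645 in the JQ1-VHL nuclear libraries, against 3645, 3956 and 4682 in the DMSO ones. All 3 CANX values under JQ1-VHL lay above the DMSO values, and the log2 change was 1.61 ± 0.25 rescaled (adjusted p = 0.000165) and -0.26 ± 0.78 on the ERCC scale (adjusted p = 0.761). CALR, its soluble relative calreticulin, had 3894, 3957 and 6296 in the JQ1-VHL nuclear libraries, against 1831, 1917 and 2071 in the DMSO ones. All 3 CALR values under JQ1-VHL lay above the DMSO values, and the log2 change was 1.25 ± 0.42 rescaled (adjusted p = 0.0303) and -0.63 ± 0.80 on the ERCC scale (adjusted p = 0.486). Among the isomerases PDIA6 was called higher after rescaling and PDIA4 lower on the ERCC scale. P4HB, the founding protein disulfide isomerase, had 1069, 1243 and 652 in the JQ1-VHL nuclear libraries, against 798, 712 and 595 in the DMSO ones. The P4HB values of the groups overlapped, and the log2 change was 0.45 ± 0.29 rescaled (adjusted p = 0.234) and -1.42 ± 0.84 on the ERCC scale (adjusted p = 0.154). PDIA4, the isomerase ERp72, had 234, 192 and 125 in the JQ1-VHL nuclear libraries, against 437, 369 and 348 in the DMSO ones. All 3 PDIA4 values under JQ1-VHL lay below the DMSO values, and the log2 change was -1.10 ± 0.75 rescaled (adjusted p = 0.27) and -2.95 ± 0.93 on the ERCC scale (adjusted p = 0.0121). PDIA6 was called higher at 1.43 ± 0.41 rescaled (adjusted p = 0.0133), while PDIA3 and PDIA5 were not called, at 0.08 ± 0.35 and 1.13 ± 0.68. PDIA4 had the lowest estimate of the 9 on both scales and HSP90B1 the highest.

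The promoters of these chaperone genes are shown because the ER stress element, the motif that ATF6 and XBP1 bind in their promoters, is the shared control region known for this group. RefSeq promoters (GRCh38.p14), 250 bases before to 50 after a start site, matched 53 of the 60 genes by symbol. The element was searched on both strands as CCAAT and CCACG separated by any 9 bases. It was in the promoters of 5 of the 53 genes (9.43%), CALR, CANX, HSP90B1, HSPA5 and PDIA6, and in 25 of all 27305 genes with a promoter (0.0916%). The 250 bases before the start are printed for 3 genes with 1 listed start, HSPA5 at chr9:125241344-125241593 on the minus strand, HSP90B1 at chr12:103930160-103930409 and CALR at chr19:12938359-12938608 on the plus strand. Each reads 5′ to 3′ along the gene, with both ends of each element in capitals; in CALR and in the second element of HSP90B1 the element lies on the opposite strand.
HSPA5: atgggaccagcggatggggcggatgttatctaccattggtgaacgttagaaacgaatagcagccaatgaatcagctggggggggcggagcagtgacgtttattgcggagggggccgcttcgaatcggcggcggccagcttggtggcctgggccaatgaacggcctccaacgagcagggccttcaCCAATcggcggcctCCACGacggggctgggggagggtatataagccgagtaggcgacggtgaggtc
HSP90B1: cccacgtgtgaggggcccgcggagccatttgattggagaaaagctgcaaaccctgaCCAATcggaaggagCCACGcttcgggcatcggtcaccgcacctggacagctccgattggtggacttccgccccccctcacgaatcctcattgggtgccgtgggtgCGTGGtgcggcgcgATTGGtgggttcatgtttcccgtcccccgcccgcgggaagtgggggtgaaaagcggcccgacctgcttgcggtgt
CALR: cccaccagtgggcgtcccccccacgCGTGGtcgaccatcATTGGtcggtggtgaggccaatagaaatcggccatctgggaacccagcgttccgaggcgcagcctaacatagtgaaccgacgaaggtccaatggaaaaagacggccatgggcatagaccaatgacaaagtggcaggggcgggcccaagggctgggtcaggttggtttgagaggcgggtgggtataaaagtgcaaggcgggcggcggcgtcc
The elements alone, read 5′ to 3′ on their own strand, show that the 9 bases between the capitals differ from gene to gene, HSP90B1 having 2 elements.
HSPA5: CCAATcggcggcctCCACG
HSP90B1, nearer element: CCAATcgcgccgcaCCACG
HSP90B1, farther element: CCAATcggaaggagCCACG
CALR: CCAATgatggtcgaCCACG
CANX: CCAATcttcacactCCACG
PDIA6: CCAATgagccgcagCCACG
The CANX element lies at chr5:179698778-179698796 and the PDIA6 element at chr2:10812853-10812871. Counted from its upstream end, the element lay 66 bases before the start in HSPA5, 89 and 194 in HSP90B1, 225 in CALR and 86 in PDIA6.

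All 5 genes with the element were among the 18 that rose in the nucleus after rescaling, with log2 changes of 1.25 to 1.74, and none was called on the ERCC scale, at -0.63 to -0.13. The element did not mark a single direction among other genes of the pathway. XBP1, whose promoter also holds it, fell in the nucleus on both scales, and CRELD2, which holds it too, rose only after rescaling; ERO1B was not called. The second form of the element, ATTGG and CCACG separated by 1 base, was in none of the 53 and in 0.0696% of all genes. The XBP1 and ATF6 core TGACGTGG was in 8 of the 53 (15.1%), COPA, COPB1, COPB2, SEC23A, SEC24A, SEC62, SSR3 and SSR4, against 0.927% of all genes. None of these 8 was called after rescaling in the nucleus, except COPA as lower in the fit with the block. A match is a description of these letters and does not show binding.

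Of the 11 COPII genes 4 rose in the nucleus after rescaling and 0 fell, with a median of 0.52, and on the ERCC scale 1, SEC23IP, fell and the median was -1.35. The risers were SAR1A, the GTPase that starts the coat, SEC23B and SEC24C of the inner coat, and SEC31A of the outer coat, at 1.27 ± 0.39, 0.70 ± 0.18, 0.52 ± 0.17 and 1.21 ± 0.20 rescaled. SEC23A, the paralog of SEC23B, had 267, 283 and 488 in the JQ1-VHL nuclear libraries, against 204, 229.9 and 246 in the DMSO ones. All 3 SEC23A values under JQ1-VHL lay above the DMSO values, and the log2 change was 0.56 ± 0.28 rescaled (adjusted p = 0.141) and -1.31 ± 0.82 on the ERCC scale (adjusted p = 0.177). SEC24D, a cargo-binding inner coat subunit, had 228, 179.8 and 323 in the JQ1-VHL nuclear libraries, against 171, 177 and 165 in the DMSO ones. All 3 SEC24D values under JQ1-VHL lay above the DMSO values, and the log2 change was 0.47 ± 0.24 rescaled (adjusted p = 0.142) and -1.39 ± 0.84 on the ERCC scale (adjusted p = 0.159). SAR1B, the second SAR1 GTPase, had 134, 124 and 148 in the JQ1-VHL nuclear libraries, against 96.8, 86.7 and 149.6 in the DMSO ones. The SAR1B values of the groups overlapped, and the log2 change was 0.32 ± 0.42 rescaled (adjusted p = 0.588) and -1.53 ± 0.96 on the ERCC scale (adjusted p = 0.177). SAR1B and SEC24A overlap each other on opposite strands.

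Of the 8 COPI genes none was called after rescaling in the nucleus, where the median was -0.02 and 3 had an unadjusted p under 0.05; on the ERCC scale 2 fell, COPA and COPG1, and the median was -1.88. COPA, the largest subunit of the coat, alpha-COP, had 283, 294 and 190.0 in the JQ1-VHL nuclear libraries, against 453, 504 and 429 in the DMSO ones. All 3 COPA values under JQ1-VHL lay below the DMSO values, and the log2 change was -0.87 ± 0.36 rescaled (adjusted p = 0.069) and -2.73 ± 0.86 on the ERCC scale (adjusted p = 0.012). COPA overlaps NCSTN on the other strand. COPG1, a gamma-COP subunit, had 411, 328 and 264 in the JQ1-VHL nuclear libraries, against 500.4, 440.5 and 504 in the DMSO ones. All 3 COPG1 values under JQ1-VHL lay below the DMSO values, and the log2 change was -0.55 ± 0.22 rescaled (adjusted p = 0.0624) and -2.41 ± 0.83 on the ERCC scale (adjusted p = 0.0192). By edgeR with TMM scaling 5 of the 60 genes fell in the nucleus, SRP9, PDIA4, COPA, COPG1 and SSRP1, where 15.9% of all tested genes fell.

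Of the 8 p24 genes 1 rose after rescaling and 0 fell, with a median of 0.58, and on the ERCC scale none was called and the median was -1.26, with 2 at an unadjusted p under 0.05. TMED10, a p24 protein that leaves and returns to the ER with cargo, had 12962, 11875 and 32095 in the JQ1-VHL nuclear libraries, against 3637, 6509 and 8101 in the DMSO ones. All 3 TMED10 values under JQ1-VHL lay above the DMSO values, and the log2 change was 1.56 ± 0.47 rescaled (adjusted p = 0.0175) and -0.31 ± 0.77 on the ERCC scale (adjusted p = 0.711). JQ1-VHL replicate 3 was the highest TMED10 library. SSRP1 was the only one of the 60 called lower on both scales. SSRP1, the FACT subunit, had 64.4, 62.0 and 14.7 ERCC-scaled units in the JQ1-VHL nuclear libraries, against 600.2, 223 and 196 in the DMSO ones. The SSRP1 change was -2.89 ± 0.87 on the ERCC scale (adjusted p = 0.00908) and -1.05 ± 0.26 rescaled (adjusted p = 0.00525).

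**Figure D3:**
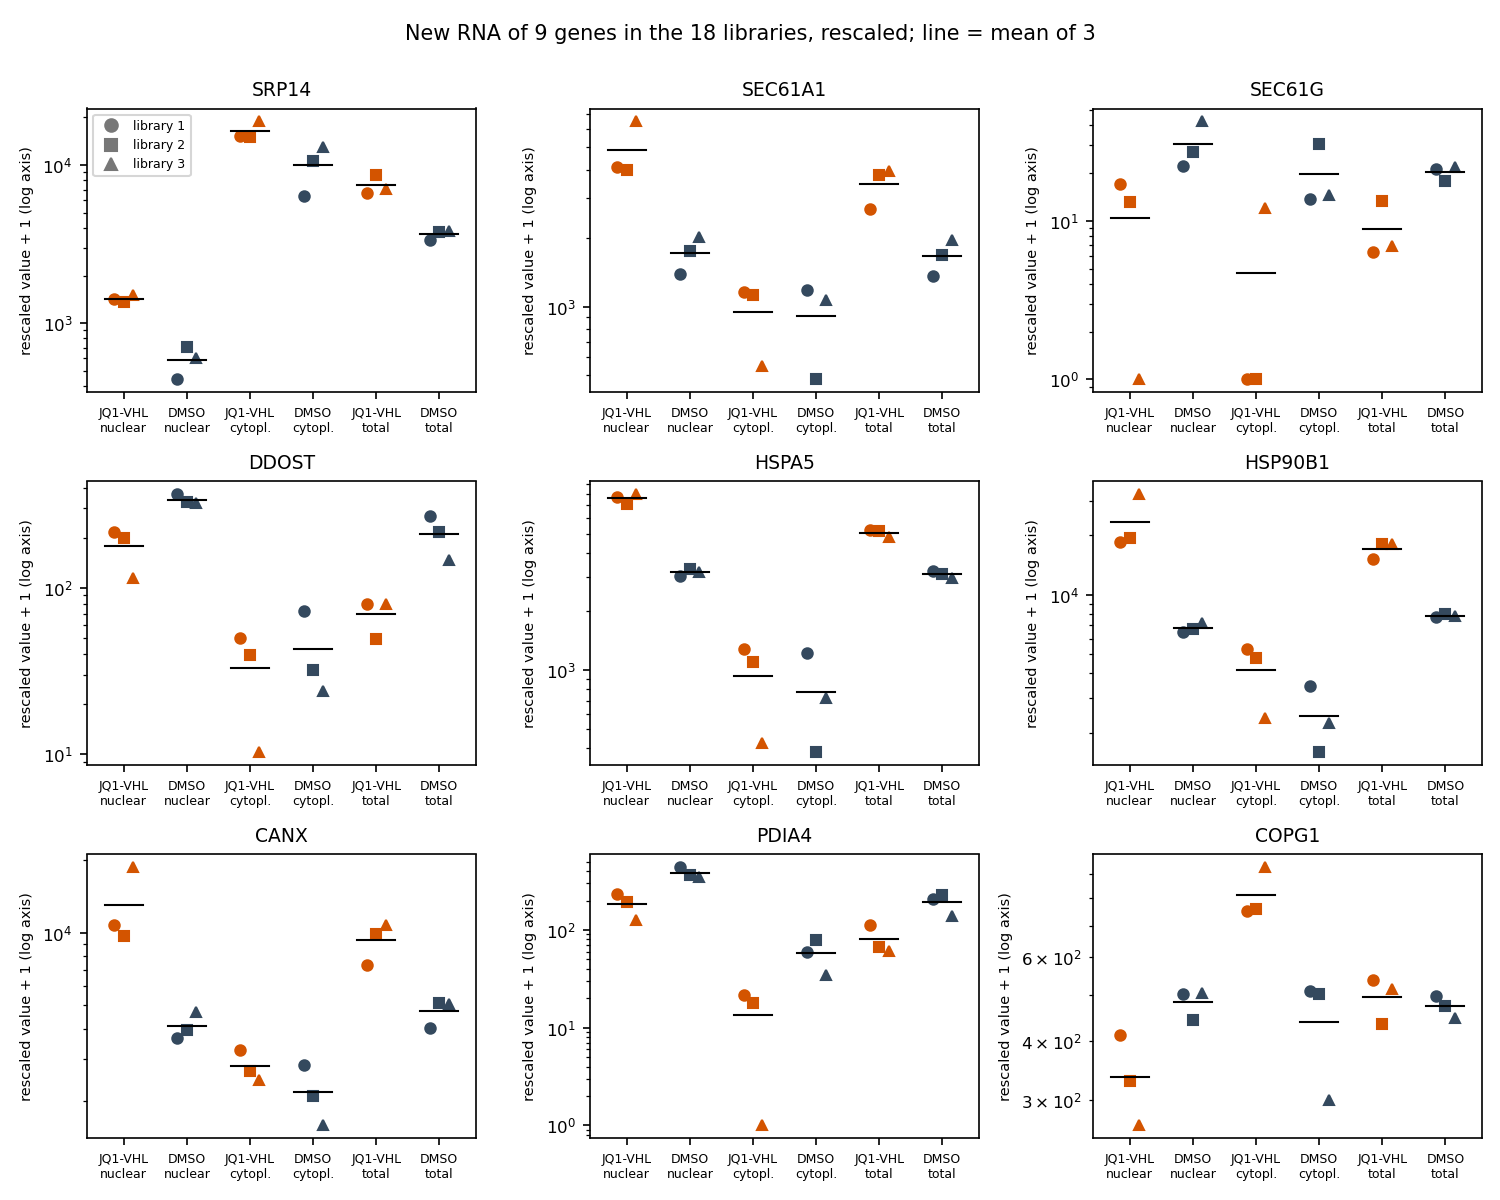
Rescaled value + 1 on a log axis for 9 genes in the 18 libraries; each marker is 1 library, its shape the replicate number, orange for JQ1-VHL and dark grey for DMSO, and the line is the mean of 3. HSP90B1 reaches 18531 to 32265 in JQ1-VHL nuclei against 6454 to 7161 in DMSO nuclei (a change of -0.13 on the ERCC scale), while PDIA4 and DDOST lie below DMSO in the nucleus and COPG1 is below DMSO in the nucleus and above it in the cytoplasm.

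In cytoplasmic RNA, which holds new RNA already exported, the 60 genes made up 1.03%, 0.973% and 0.672% of the units under JQ1-VHL, against 1.10%, 0.825% and 0.877% under DMSO. These shares, 0.891 ± 0.192% and 0.935 ± 0.148% (SD, n = 3 each), overlapped. No gene of the 60 was called on the ERCC scale by limma, with 3 at an unadjusted p under 0.05, and none by edgeR on the same scale. Over all tested genes 0.226% were called higher and 3.67% lower. With the replicate block 2 fell, SEC61G and PDIA4, where 5.68% of all tested genes were called lower. After rescaling 13 rose and 5 fell, where 14.8% of all tested genes were called higher and 15.9% lower. With the block on rescaled values 15 rose and 6 fell, adding HSP90B1 and COPZ1 as higher and SAR1B as lower. That fit called 17.56% of all tested genes higher and 17.96% lower. Without JQ1-VHL cytoplasmic replicate 3, 8 rose and 3 fell, and 8 of the 18 calls held. Of all tested genes 9.63% were then called higher and 12.0% lower. Without DMSO cytoplasmic replicate 2, 10 rose and 4 fell after rescaling, where 11.04% of all tested genes were called higher and 11.54% lower. On the ERCC scale SEC61G, SSR2, STT3B and PDIA4 fell without that library, where 12.3% of all genes were called lower. The median of the 60 on that scale was then -0.82, against 0.15 with all libraries. The risers were mostly SRP and coat subunits: SRP14, SRP54, SRP68 and SRP72, SEC23A, SEC23B, SEC24C, SEC24D and SEC31A, COPG1 and COPG2, with SEC61A2 and SEC61B. Of the 24 cytosolic subunits 11 rose and 0 fell, with a median of 0.59, and of the 31 proteins made at the ER 1 rose and 4 fell, with a median of -0.01. Those medians were 0.53 and -0.08 on the ERCC scale. The levels of the 31 were lowest in JQ1-VHL replicate 3, as given above. Leaving that library out lost the calls of SRP14, SRP68, SRP72, SEC23A, SEC24C, SEC24D and COPG2 among the 24. It also lost those of STT3B and TMED9 among the 31. Gained as higher were SAR1A among the 24, and CALR and HSP90B1 among the 31, so the contrast between the sets was weaker without it.

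SRP54, of the signal recognition particle, had 1624, 1592 and 2284 in the JQ1-VHL cytoplasmic libraries, against 889.5, 1022 and 559 in the DMSO ones. All 3 SRP54 values under JQ1-VHL lay above the DMSO values, and the log2 change was 1.18 ± 0.26 rescaled (adjusted p = 0.00333) and 1.11 ± 0.82 on the ERCC scale (adjusted p = 0.717). SEC61B, the tail-anchored channel subunit, had 824, 814 and 1081 in the JQ1-VHL cytoplasmic libraries, against 319.6, 427 and 836 in the DMSO ones. The SEC61B values of the groups overlapped, and the log2 change was 0.89 ± 0.30 rescaled (adjusted p = 0.0328) and 0.82 ± 0.85 on the ERCC scale (adjusted p = 0.874). The SEC61B values of DMSO replicate 3 and of JQ1-VHL replicates 1 and 2 were close together. SEC61A2, the second pore gene, had 55.0, 99.1 and 48.0 in the JQ1-VHL cytoplasmic libraries, against 44.8, 27.8 and 28.9 in the DMSO ones. All 3 SEC61A2 values under JQ1-VHL lay above the DMSO values, and the log2 change was 0.93 ± 0.32 rescaled (adjusted p = 0.0331) and 0.85 ± 0.90 on the ERCC scale (adjusted p = 0.877). SEC61A2 overlaps NUDT5 on the other strand. SEC23A, of the inner COPII coat, had 1206, 1403 and 1686 in the JQ1-VHL cytoplasmic libraries, against 866, 1108 and 451 in the DMSO ones. All 3 SEC23A values under JQ1-VHL lay above the DMSO values, and the log2 change was 0.91 ± 0.28 rescaled (adjusted p = 0.0223) and 0.84 ± 0.82 on the ERCC scale (adjusted p = 0.86). SEC24D, its partner in that coat, had 692, 632 and 800.3 in the JQ1-VHL cytoplasmic libraries, against 421, 535 and 327 in the DMSO ones. All 3 SEC24D values under JQ1-VHL lay above the DMSO values, and the log2 change was 0.75 ± 0.24 rescaled (adjusted p = 0.0246) and 0.68 ± 0.84 on the ERCC scale (adjusted p = 0.89). COPG1, a gamma-COP, had 749.9, 758 and 928 in the JQ1-VHL cytoplasmic libraries, against 508, 502 and 299 in the DMSO ones. All 3 COPG1 values under JQ1-VHL lay above the DMSO values, and the log2 change was 0.93 ± 0.22 rescaled (adjusted p = 0.00443) and 0.86 ± 0.83 on the ERCC scale (adjusted p = 0.858). COPG2, the other gamma-COP, had 236, 254 and 331 in the JQ1-VHL cytoplasmic libraries, against 178, 179.8 and 70.3 in the DMSO ones. All 3 COPG2 values under JQ1-VHL lay above the DMSO values, and the log2 change was 1.04 ± 0.30 rescaled (adjusted p = 0.0154) and 0.97 ± 0.88 on the ERCC scale (adjusted p = 0.84). COPG2 overlaps MEST on the other strand and TSGA13 on the same one. Of these genes SRP54 and COPG1 stayed called when any 1 of the 6 cytoplasmic libraries was left out. SEC61B, SEC23A, SEC24D and COPG2 lost their calls without JQ1-VHL replicate 3. SEC61B was also lost without DMSO replicate 1 or 2, SEC24D without DMSO replicate 1 or 3, and SEC23A and COPG2 without DMSO replicate 3. SEC61A2 was lost without JQ1-VHL replicate 2 or DMSO replicate 2 or 3.

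The 5 that fell in the cytoplasm after rescaling were SEC61G, PDIA4, SSR2, STT3B and TMED9. PDIA4, the isomerase ERp72, had 20.4, 17.0 and 0 in the JQ1-VHL cytoplasmic libraries, against 58.5, 78.5 and 33.7 in the DMSO ones. JQ1-VHL replicate 3 had 0 reads for it. All 3 PDIA4 values under JQ1-VHL lay below the DMSO values, and the log2 change was -2.91 ± 0.75 rescaled (adjusted p = 0.00787) and -2.85 ± 0.93 on the ERCC scale (adjusted p = 0.0537). SEC61G, the small channel subunit, had 0, 0 and 11.1 in the JQ1-VHL cytoplasmic libraries, against 12.8, 29.4 and 13.5 in the DMSO ones. The JQ1-VHL value rested on 6 reads, all in replicate 3, against 46 reads under DMSO. All 3 SEC61G values under JQ1-VHL lay below the DMSO values, and the log2 change was -2.99 ± 0.99 rescaled (adjusted p = 0.0287) and -3.37 ± 1.13 on the ERCC scale (adjusted p = 0.0635). SSR2, the beta subunit of TRAP, had 22.0, 41.1 and 25.9 in the JQ1-VHL cytoplasmic libraries, against 142, 129 and 60.7 in the DMSO ones. All 3 SSR2 values under JQ1-VHL lay below the DMSO values, and the log2 change was -1.82 ± 0.32 rescaled (adjusted p = 0.00077) and -1.89 ± 0.92 on the ERCC scale (adjusted p = 0.329). TMED9, a p24 protein, had 23.6, 12.7 and 3.7 in the JQ1-VHL cytoplasmic libraries, against 45.7, 24.5 and 30.8 in the DMSO ones. All 3 TMED9 values under JQ1-VHL lay below the DMSO values, and the log2 change was -1.53 ± 0.51 rescaled (adjusted p = 0.0297) and -1.60 ± 1.02 on the ERCC scale (adjusted p = 0.606). STT3B was no longer called without JQ1-VHL replicate 3, DMSO replicate 1 or DMSO replicate 3, and TMED9 without JQ1-VHL replicate 3 or DMSO replicate 1. SEC61G lost its call without JQ1-VHL replicate 1, JQ1-VHL replicate 2 or DMSO replicate 2. PDIA4 and SSR2 were called in each of the 6 settings that leave out 1 library.

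The chaperones that rose in the nucleus were not called in the cytoplasm. HSPA5, BiP, had 1284, 1107 and 423 in the JQ1-VHL cytoplasmic libraries, against 1219, 379 and 718 in the DMSO ones. The HSPA5 values of the groups overlapped, and the log2 change was 0.29 ± 0.35 rescaled (adjusted p = 0.563) and 0.22 ± 0.79 on the ERCC scale (adjusted p = 0.953). HSP90B1, GRP94, had 5300, 4780 and 2373 in the JQ1-VHL cytoplasmic libraries, against 3449, 1591 and 2255 in the DMSO ones. The HSP90B1 values of the groups overlapped, and the log2 change was 0.76 ± 0.29 rescaled (adjusted p = 0.0521) and 0.70 ± 0.77 on the ERCC scale (adjusted p = 0.878). The third JQ1-VHL library was lowest for both. CALR, calreticulin, had 1747, 1715 and 429 in the JQ1-VHL cytoplasmic libraries, against 1343, 435 and 846 in the DMSO ones. The CALR values of the groups overlapped, and the log2 change was 0.46 ± 0.42 rescaled (adjusted p = 0.421) and 0.39 ± 0.80 on the ERCC scale (adjusted p = 0.921). Without JQ1-VHL cytoplasmic replicate 3, CALR, HSP90B1 and SAR1A were called higher. CANX, calnexin, had 3253, 2680 and 2447 in the JQ1-VHL cytoplasmic libraries, against 2835, 2096 and 1586 in the DMSO ones. The CANX values of the groups overlapped, and the log2 change was 0.39 ± 0.25 rescaled (adjusted p = 0.238) and 0.33 ± 0.78 on the ERCC scale (adjusted p = 0.928). SEC61A1, the main pore subunit, had 1163, 1127 and 549 in the JQ1-VHL cytoplasmic libraries, against 1186, 477 and 1064 in the DMSO ones. The SEC61A1 values of the groups overlapped, and the log2 change was 0.09 ± 0.33 rescaled (adjusted p = 0.864) and 0.02 ± 0.80 on the ERCC scale (adjusted p = 0.996). The remaining members chosen for full values were not called in the cytoplasm either. Their rescaled changes were -0.08 ± 0.57 for SRPRA, 0.17 ± 0.29 for P4HB, -0.01 ± 0.35 for STT3A, 0.03 ± 0.35 for RPN1, -1.10 ± 0.42 for SAR1B, 0.22 ± 0.36 for COPA and 0.35 ± 0.47 for TMED10. TMED10, of the p24 family, had 11068, 10583 and 3153 in the JQ1-VHL cytoplasmic libraries, against 6984, 2846 and 8943 in the DMSO ones. COPA, alpha-COP, had 108, 134 and 202 in the JQ1-VHL cytoplasmic libraries, against 162, 189.6 and 59.7 in the DMSO ones. In TMED10, replicate 3 of JQ1-VHL and replicate 2 of DMSO were the low libraries, and in COPA they were the high ones. RPN1, ribophorin I, had 630.4, 590.4 and 235 in the JQ1-VHL cytoplasmic libraries, against 634, 230.5 and 559.7 in the DMSO ones. STT3A, its catalytic partner, had 176, 90.6 and 68.4 in the JQ1-VHL cytoplasmic libraries, against 115, 164 and 59.7 in the DMSO ones. P4HB, protein disulfide isomerase, had 123, 94.9 and 102 in the JQ1-VHL cytoplasmic libraries, against 107, 124 and 61.6 in the DMSO ones. The groups overlapped for all 3. SRPRA, the receptor subunit, had 318, 268 and 37.0 in the JQ1-VHL cytoplasmic libraries, against 183, 71.9 and 288 in the DMSO ones. SAR1B, the GTPase, had 34.6, 22.6 and 11.1 in the JQ1-VHL cytoplasmic libraries, against 35.6, 73.6 and 35.6 in the DMSO ones. SRPRA overlapped between the groups, and the SAR1B values under JQ1-VHL lay just below those under DMSO.

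In total RNA no gene of the 60 was called on the ERCC scale by limma, with 1 at an unadjusted p under 0.05, and none by edgeR on that scale, where 0.245% of all tested genes were called higher and 2.79% lower. The 60 genes made up 1.82%, 1.82% and 1.86% of the units under JQ1-VHL, against 1.55%, 1.62% and 1.60% under DMSO, or 1.83 ± 0.0226% and 1.59 ± 0.0369% (SD, n = 3 each). After rescaling 11 rose and 2 fell, where 12.2% of all tested genes were called higher and 18.3% lower. The rescaled median was 0.39 for the 60 genes and -0.19 over all tested genes. The risers were SRP14, SRP54, SRP68 and SRP72, SEC61A1, CANX and HSP90B1, SEC23B, SEC24C and SEC31A, and COPZ1; DDOST and SSR2 fell. With the block SEC61B was added as higher and TMED9 and SSRP1 as lower. Leaving out 1 library at a time gave 7 to 9 risers and 0 to 2 that fell, with 7 risers and none that fell without JQ1-VHL total replicate 3 or without DMSO total replicate 1 or 2. The 7 that held in those 3 settings were SRP14, SRP68, SRP72, CANX, HSP90B1, SEC23B and SEC31A. TMM scaling with edgeR gave 22 risers and 1 that fell, against 21.3% and 16.1% of all tested genes. The rescaled fits that left out 1 total library called 5.95% to 10.95% of all tested genes higher and 9.06% to 17.5% lower.

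HSP90B1, GRP94, had 15246, 18005 and 18163 in the JQ1-VHL total libraries, against 7723, 8013 and 7787 in the DMSO ones. All 3 HSP90B1 values under JQ1-VHL lay above the DMSO values, and the log2 change was 1.12 ± 0.29 rescaled (adjusted p = 0.00903) and 0.82 ± 0.77 on the ERCC scale (adjusted p = 0.749). CANX, calnexin, had 7364, 9902 and 10782 in the JQ1-VHL total libraries, against 4014, 5119 and 5082 in the DMSO ones. All 3 CANX values under JQ1-VHL lay above the DMSO values, and the log2 change was 0.97 ± 0.25 rescaled (adjusted p = 0.00895) and 0.67 ± 0.78 on the ERCC scale (adjusted p = 0.839). For both genes the total libraries of the groups did not overlap. SEC61A1, the channel pore, had 2669, 3776 and 3956 in the JQ1-VHL total libraries, against 1367, 1689 and 1959 in the DMSO ones. All 3 SEC61A1 values under JQ1-VHL lay above the DMSO values, and the log2 change was 1.05 ± 0.33 rescaled (adjusted p = 0.0243) and 0.75 ± 0.80 on the ERCC scale (adjusted p = 0.814). SRP14, of SRP, had 6632, 8602 and 7103 in the JQ1-VHL total libraries, against 3362, 3791 and 3817 in the DMSO ones. All 3 SRP14 values under JQ1-VHL lay above the DMSO values, and the log2 change was 1.02 ± 0.23 rescaled (adjusted p = 0.00411) and 0.72 ± 0.78 on the ERCC scale (adjusted p = 0.82). DDOST, OST48, had 79.4, 48.2 and 78.8 in the JQ1-VHL total libraries, against 269, 215 and 147 in the DMSO ones. All 3 DDOST values under JQ1-VHL lay below the DMSO values, and the log2 change was -1.59 ± 0.50 rescaled (adjusted p = 0.024) and -1.89 ± 0.92 on the ERCC scale (adjusted p = 0.264). SSR2, of TRAP, had 62.2, 87.7 and 80.0 in the JQ1-VHL total libraries, against 165, 143 and 148 in the DMSO ones. All 3 SSR2 values under JQ1-VHL lay below the DMSO values, and the log2 change was -0.99 ± 0.32 rescaled (adjusted p = 0.0285) and -1.29 ± 0.92 on the ERCC scale (adjusted p = 0.549). HSPA5 and CALR were above DMSO in all 3 JQ1-VHL total libraries without passing the test. HSPA5, BiP, had 5219, 5131 and 4820 in the JQ1-VHL total libraries, against 3207, 3116 and 2958 in the DMSO ones. CALR, calreticulin, had 2714, 2851 and 2572 in the JQ1-VHL total libraries, against 1855, 1717 and 1631 in the DMSO ones. Their rescaled changes were 0.71 ± 0.35 (adjusted p = 0.127) and 0.65 ± 0.42 (adjusted p = 0.239). PDIA4, ERp72, had 110.5, 66.7 and 60.0 in the JQ1-VHL total libraries, against 207, 229 and 138 in the DMSO ones. COPA, alpha-COP, had 219, 211 and 133 in the JQ1-VHL total libraries, against 363, 343 and 251 in the DMSO ones. Both lay below DMSO in all 3 libraries and neither was called, at -1.28 ± 0.75 (adjusted p = 0.195) and -0.78 ± 0.36 (adjusted p = 0.102). TMED10, the p24 protein, had 11820, 14793 and 14905 in the JQ1-VHL total libraries, against 6254, 7388 and 7225 in the DMSO ones. SRP54, the SRP GTPase, had 989, 1076 and 1054 in the JQ1-VHL total libraries, against 618, 625 and 613 in the DMSO ones. TMED10 was not called at 0.99 ± 0.47 (adjusted p = 0.113), and SRP54 rose by 0.75 ± 0.26 (adjusted p = 0.0383), while their ERCC-scale changes were 0.69 ± 0.77 and 0.45 ± 0.82. SEC61B, the tail-anchored subunit, had 373, 446 and 435 in the JQ1-VHL total libraries, against 214, 263 and 272 in the DMSO ones. RPN1, ribophorin I, had 1037, 1075 and 1066 in the JQ1-VHL total libraries, against 852, 794 and 786 in the DMSO ones. Both were higher in all 3 JQ1-VHL libraries and not called, at 0.75 ± 0.30 and 0.39 ± 0.35. SRPRA, the receptor subunit, had 327, 394 and 372 in the JQ1-VHL total libraries, against 325, 340.2 and 317 in the DMSO ones. P4HB, the isomerase, had 441, 456 and 341 in the JQ1-VHL total libraries, against 563, 418 and 324 in the DMSO ones. The groups overlapped for both genes. STT3A, the catalytic subunit, had 456, 581 and 644 in the JQ1-VHL total libraries, against 414, 480.0 and 417 in the DMSO ones. SAR1B, the GTPase of COPII, had 61.1, 48.2 and 29.4 in the JQ1-VHL total libraries, against 73.5, 87.1 and 75.8 in the DMSO ones. The STT3A groups overlapped, and all 3 SAR1B values under JQ1-VHL lay below the DMSO values. SEC23A, of the inner coat, had 655, 893 and 929.5 in the JQ1-VHL total libraries, against 477, 516 and 563 in the DMSO ones. SEC24D, of the same coat, had 404, 431 and 529.5 in the JQ1-VHL total libraries, against 256, 386 and 334 in the DMSO ones. For both inner coat genes the JQ1-VHL values lay above the DMSO values. These 6, SRPRA, P4HB, STT3A, SEC23A, SEC24D and SAR1B, had rescaled total changes of -0.81 to 0.66, none called.

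Whether JQ1-VHL acted differently on nuclear and on cytoplasmic new RNA of the same gene was tested as the difference of the 2 effects. None of the 60 was called on the ERCC scale by limma, with 4 at an unadjusted p under 0.05, nor by edgeR, and none of all tested genes was. After rescaling 0 were called higher and 2 lower, where 1.45% of all tested genes were called higher and 1.37% lower. The 2 were COPG1, at -1.48 ± 0.31 (adjusted p = 0.0157), and SSRP1, at -1.54 ± 0.36 (adjusted p = 0.0306). For COPG1 the nuclear change was -0.55 ± 0.22 and the cytoplasmic change 0.93 ± 0.22, and for SSRP1 they were -1.05 ± 0.26 and 0.49 ± 0.26. These are changes of sums over intervals, and the COPG1 intervals did not all change alike, as given below. The same 2 were called lower by edgeR with TMM scaling and by DESeq2, and DESeq2 also called SEC61A1, STT3B and CANX higher. Of all tested genes TMM called 2.33% lower, and DESeq2 3.56% lower and 5.89% higher. COPG1 was no longer called without DMSO nuclear replicate 3, and SSRP1 was lost in 5 of the settings that leave out 1 library. The chaperones' nuclear effect exceeded their cytoplasmic effect in all 9 estimates, with a median of 0.98, but none passed the test; CANX was nearest, at 1.22 ± 0.35 (adjusted p = 0.067). That median was -0.83 on the ERCC scale, where 8 of the 9 estimates were negative. All tested genes had medians of 0.13 rescaled and -1.60 on the ERCC scale. For the 60 genes the rescaled median was 0.47, and 0.13 without JQ1-VHL cytoplasmic replicate 3.

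Nuclear and cytoplasmic new RNA were then compared within each treatment, which sets the genes of proteins made at the ER against those of cytosolic subunits. Under JQ1-VHL 29 of the 60 were higher in the nucleus and 18 lower after rescaling, where 38.7% of all tested genes were called higher and 26.0% lower. Under DMSO 19 were higher and 16 lower, against 33.0% and 23.7% of all tested genes. The ERCC scale gave 2 higher and 21 lower under JQ1-VHL, against 3.01% and 28.8% of all tested genes. Under DMSO on that scale 7 were higher and 3 lower, against 14.7% and 5.92%, with a median of 0.58. Without DMSO cytoplasmic replicate 2 the balance turned, to 4 higher and 13 lower with a median of -0.33, against 8.67% and 18.3% of all genes. ERCC RNA was added per mass of RNA in each fraction, so neither scale gives amounts per cell. With the replicate block COPA was added as higher in the nucleus, rescaled under JQ1-VHL and on the ERCC scale under DMSO.

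The chaperones and isomerases were on the nuclear side after rescaling, 9 of 9 called higher under JQ1-VHL with a median of 2.53, and 7 of 9 under DMSO with a median of 1.55. Of the 9, 1 under JQ1-VHL and 3 under DMSO were called higher on the ERCC scale, and none lower. HSPA5 was higher in the nucleus by 3.16 ± 0.35 under JQ1-VHL and 2.19 ± 0.35 under DMSO. P4HB was higher by 3.16 ± 0.29 and 2.88 ± 0.29, and PDIA4 by 4.62 ± 0.75 and 2.81 ± 0.75. The oligosaccharyltransferase genes followed, with 5 of 6 called higher under JQ1-VHL (median 2.52) and 4 of 6 under DMSO (median 1.18); on the ERCC scale 0 and 2 were called higher and none lower. DDOST had 2.65 ± 0.50 and 3.14 ± 0.50, and STT3A 2.99 ± 0.35 and 2.40 ± 0.35. Of the p24 genes 6 of 8 were called higher under JQ1-VHL, and none was called higher and TMED3 lower under DMSO, with medians of 1.29 and 0.08. On the ERCC scale none of the 8 was called higher and 2 lower under JQ1-VHL (median -0.34), and none either way under DMSO (median 0.24), so the direction under JQ1-VHL rests on the scale. Without JQ1-VHL cytoplasmic replicate 3, TMED1, TMED4, TMED5, TMED10 and SRPRA lost their calls.

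SRP and coat subunits were mostly on the cytoplasmic side after rescaling. SRP14 had 1411, 1353 and 1512 in JQ1-VHL nuclei against 15317, 15041 and 18885 in the cytoplasm, and 439.5, 702 and 603 in DMSO nuclei against 6398, 10561 and 13062 in the cytoplasm. SRP14, SRP54, SRP68 and SRP72 were lower in the nucleus under both treatments, SRP14 at -3.52 ± 0.23 under JQ1-VHL and -4.07 ± 0.23 under DMSO, with nuclear and cytoplasmic libraries that did not overlap, while SRPRA, a receptor subunit on the ER surface, was higher at 1.82 ± 0.57 and 1.42 ± 0.57. In COPII 7 of 11 were lower in the nucleus under each treatment, and SEC31B and SAR1B were higher under both. SEC31B rested on 5 and 4 reads in the cytoplasmic groups, and its nuclear values were 116, 64.3 and 96.4 under JQ1-VHL and 34.5, 43.3 and 39.9 under DMSO. COPZ1 of COPI had 145, 168 and 295 in JQ1-VHL nuclei against 1657, 1395 and 2066 in the cytoplasm, and 84.7, 117 and 131 in DMSO nuclei against 752, 812 and 1720 in the cytoplasm. It was lower at -3.12 ± 0.31 and -3.21 ± 0.31. In COPI, COPA was higher by 1.90 ± 0.36 under DMSO and not called at 0.81 ± 0.36 under JQ1-VHL. Within the channel, SEC61A1 and SEC61B lay on opposite sides: SEC61A1 was higher in the nucleus at 2.40 ± 0.33 and 1.01 ± 0.33, and SEC61B lower at -3.30 ± 0.30 and -2.74 ± 0.30. As background, SEC61B is a tail-anchored protein, released from the ribosome before it enters the membrane. SEC61G, the other tail-anchored subunit, was not called, at 1.40 ± 0.99 under JQ1-VHL and 0.69 ± 0.99 under DMSO.

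By where the protein is made, the 31 genes of proteins made at the ER had 24 called higher and 1 lower in the nucleus under JQ1-VHL (median 2.17), and 15 and 2 under DMSO (median 0.97). The 24 cytosolic subunits had 4 and 15 under JQ1-VHL (median -1.05), and 3 and 13 under DMSO (median -0.69). Over all tested genes the medians were 0.65 and 0.48. The 31 had, on the ERCC scale, 1 higher and 2 lower under JQ1-VHL (median 0.53), and 6 and 0 under DMSO (median 1.12). The 24 had 1 and 16 under JQ1-VHL (median -2.68), and 1 and 2 under DMSO (median -0.52). The split was described after the values were seen, so no test is given for it. The cytoplasmic libraries that were low for the ER-made group, JQ1-VHL replicate 3 and DMSO replicate 2, enter these medians. Without them the rescaled counts over the 60 genes were 26 higher and 19 lower under JQ1-VHL, and 17 and 16 under DMSO. Of all tested genes 34.0% were then called higher and 24.5% lower under JQ1-VHL, and 29.8% and 22.6% under DMSO.

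**Figure D4:**
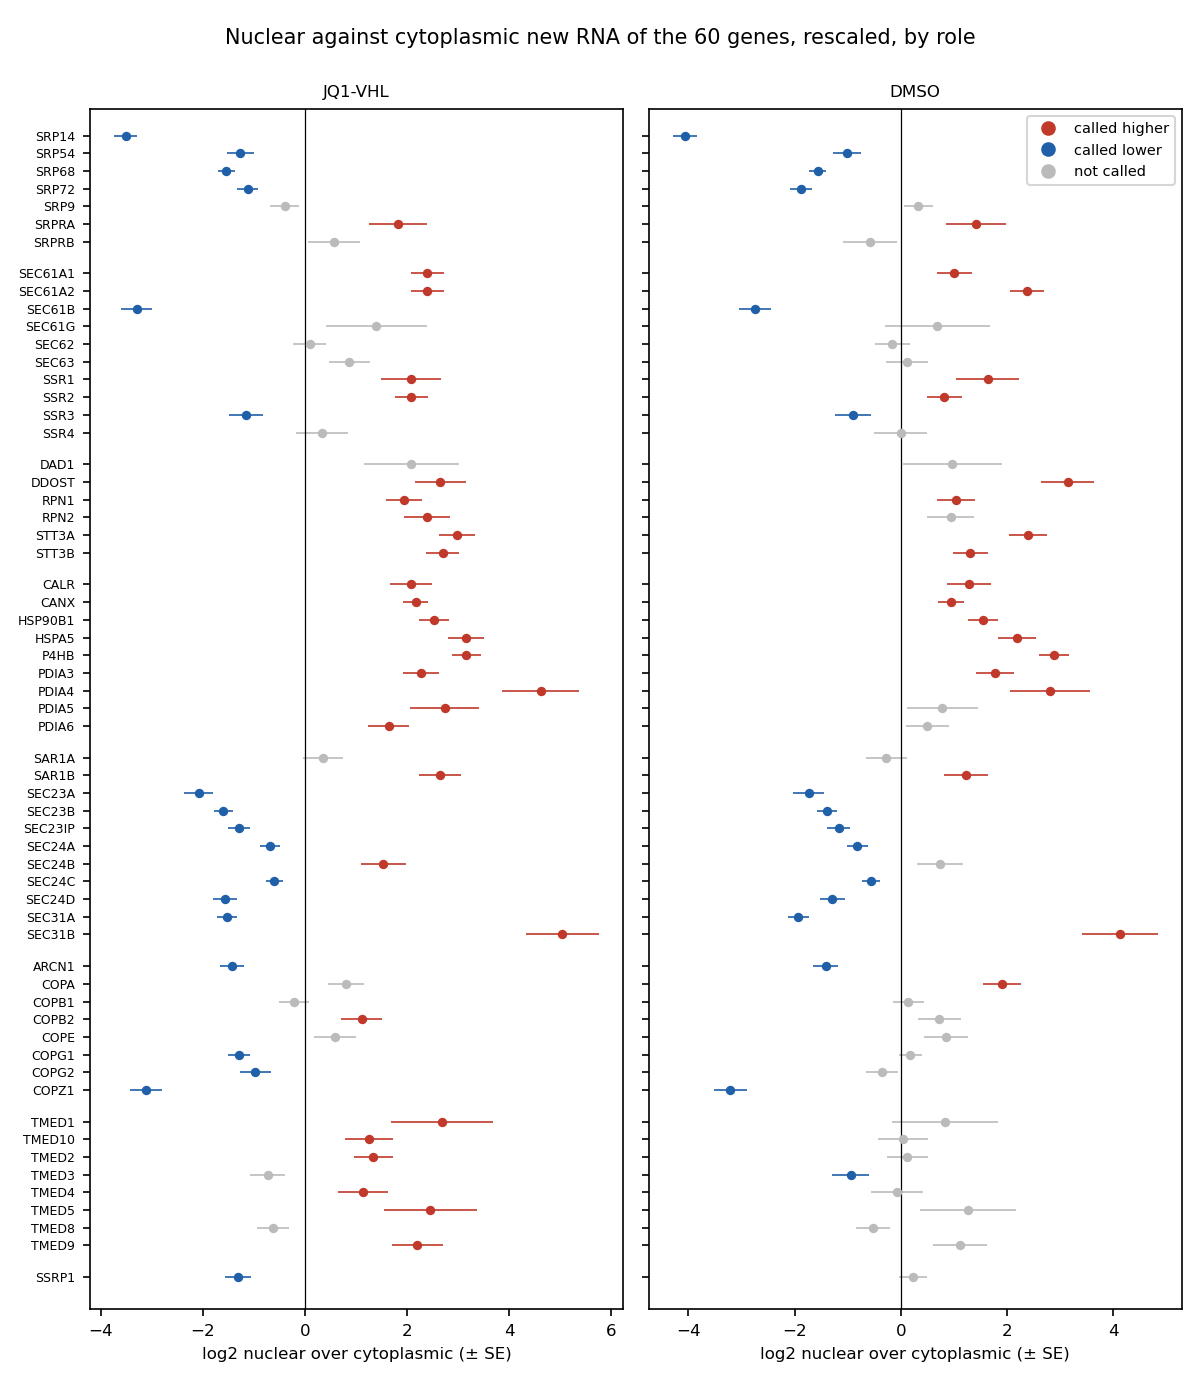
Log2 ratio of nuclear over cytoplasmic new RNA, rescaled, for the 60 genes by role under JQ1-VHL (left) and DMSO (right); points are limma estimates, bars 1 SE, and colour marks a call. Chaperones and oligosaccharyltransferase genes lie right of 0 in both panels, and most SRP and COPII genes lie left of 0. On the ERCC scale, which is not drawn, 5 of 7 SRP and receptor genes and 7 of 11 COPII genes were called lower under JQ1-VHL, against 1 and 0 under DMSO.

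The table gives values for numbered intervals of each gene, and the intervals of a gene did not all change alike. In 28 of the 60 genes the highest interval number equals the number of gaps between merged exons in GENCODE 29, and what the intervals delimit is not given in the sources used here. Calnexin is given as an example, chosen after its values were seen. Its intervals 3 to 10 and 18 to 21 had rescaled nuclear changes of 1.64 to 1.84, for example 1993 under JQ1-VHL against 557 under DMSO in interval 20, as means of 3 libraries. Its intervals 11 to 17 had far lower values and changes of -0.60 to 0.52, for example 18.6 under JQ1-VHL against 28.8 under DMSO in interval 14. Neighbouring intervals such as 3 to 7 held nearly equal values, so 1 fragment may have been counted in several and the sum of a gene may count it more than once. In SEC61A1, intervals 2 to 6 had 1.48 to 1.73 and interval 7 had -0.74, with 49.9 under JQ1-VHL against 84.2 under DMSO. In SEC23B interval 13 had 1.45 and interval 20 -1.36, with 34.1 under JQ1-VHL against 89.1 under DMSO. In PDIA4 intervals 1 to 5 had -2.1 to -1.2, and interval 3 held the most, 71.2 under JQ1-VHL against 216 under DMSO. Its intervals 6 to 10 had -0.13 to 0.60, all at low values. In COPG1 interval 17 had -1.93, while intervals 22 and 23 had 0.75 and 0.34. HSPA5 was even, with 0.92 to 1.43 over its 7 intervals.

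Across the genes, 573 intervals had a rescaled mean of at least 5. They were grouped, after the values were seen, by the ratio of DMSO cytoplasmic to DMSO total values, which uses no nuclear library. The 207 intervals with a ratio above 1 had a median nuclear log2 change of 0.84. The 180 intervals with a ratio of 0.5 to 1 had 0.17, the 148 with 0.25 to 0.5 had 0.01, and the 38 under 0.25 had -0.50. Over 62528 intervals of all genes the medians in the same order were 0.68, -0.14, -0.34 and -0.63. The order was thus the same in these genes as in all genes, and intervals of 1 gene are not independent. Taking the highest interval of each gene on the ERCC scale, 7 of the 60 fell in the nucleus and 0 rose. Of all tested genes 24.7% fell and 0.343% rose in that setting.

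Other genes of the secretory pathway were counted from 3 lists. Of 30 tested genes of the unfolded protein response, 14 fell and 0 rose in the nucleus on the ERCC scale, with a median of -2.34; after rescaling 4 fell and 5 rose, with a median of -0.53. After rescaling 8 fell and 2 rose in the cytoplasm, and 6 fell and 1 rose in total RNA. Those that fell in the nucleus on both scales were XBP1, the transcription factor of the pathway that IRE1 activates, TRIB3, DNAJB9 and EDEM2. XBP1 had a rescaled change of -1.32 ± 0.36 (adjusted p = 0.0101) in the nucleus, -3.37 ± 0.36 (adjusted p = 1.13e-05) in the cytoplasm and -2.21 ± 0.36 (adjusted p = 0.000642) in total RNA. XBP1 is also a marker of the luminal lineage of these cells. TRIB3, a target of ATF4 and DDIT3, had -3.08 ± 0.53 (adjusted p = 0.000437) in the nucleus. DNAJB9, a cochaperone of HSPA5, had -3.56 ± 0.77 (adjusted p = 0.00221). The 5 that rose after rescaling were ATF6, ATF4, DNAJC3, CRELD2 and HYOU1, the last an ER chaperone with 1.46 ± 0.23 (adjusted p = 0.000193) and DNAJC3 with 1.57 ± 0.44 (adjusted p = 0.0118). ATF4 had 0.83 ± 0.31 (adjusted p = 0.0476) in the nucleus and -1.005 ± 0.31 (adjusted p = 0.02) in the cytoplasm. HERPUD1 had -0.55 ± 0.42 (adjusted p = 0.327) and DDIT3 -1.63 ± 0.89 (adjusted p = 0.168) in the nucleus. The same 5 had -1.03 to -0.28 on the ERCC scale and none was called higher. On the rescaled values XBP1, TRIB3 and DNAJB9 fell while HSPA5, HSP90B1, CALR, CANX and HYOU1 rose.

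Of 25 tested genes of signal peptidase, membrane insertion and other glycosylation steps, 7 fell and 0 rose in the nucleus on the ERCC scale, and 7 rose and 2 fell after rescaling. TUSC3, an oligosaccharyltransferase subunit, had the highest called value, 1.64 ± 0.42 (adjusted p = 0.00673), and EMC2, of a membrane insertase, the lowest, -2.56 ± 0.51 (adjusted p = 0.00121). Their ERCC-scale changes were -0.22 and -4.19. In the cytoplasm 3 rose and 2 fell after rescaling, and in total RNA 3 rose and 1 fell. Of 23 tested genes of other ER to Golgi traffic, 6 fell and 0 rose in the nucleus on the ERCC scale, and 5 rose and 2 fell after rescaling. LMAN1, a lectin cargo receptor, had 1.46 ± 0.32 (adjusted p = 0.00238) and TFG, a protein of COPII exit sites, -2.27 ± 0.47 (adjusted p = 0.0016). SEC13, the partner of SEC31A in the outer coat, was not called in the nucleus at 0.31 ± 0.18 (adjusted p = 0.19) and rose in the cytoplasm at 0.93 ± 0.18 (adjusted p = 0.0012) after rescaling. In the cytoplasm 5 rose and 0 fell, and in total RNA 4 rose and 2 fell. KDELR2 was not tested. These counts are read against the shares of all genes called that are given for each comparison above.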

How the data were processed

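New RNA was measured by SLAM-seq, in which 4-thiouridine in RNA is alkylated and read as T-to-C changes. The deposited signal values are T-to-C counts per gene interval divided by 1 factor per library, which the name of the authors' table gives as an ERCC normalization. ERCC RNA was added per mass of RNA, per the labels' protocols. Per the submitters' processing notes the tools were bcl2fastq, Trimmomatic 0.39, HISAT2, HTSeq and DESeq2. How T-to-C reads were called, the counting rule and the strand counted are not given in the sources used here. The members and lists were chosen with earlier results of these data known.

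The 98665 intervals were summed per gene ID. Whole reads could be recovered from 100% of the values, within a tolerance of 0.01. Genes with a mean of at least 10 were tested, and they hold 99.8% of all units. The test was limma 3.58.1 (R 4.3.3) on log2(value + 1), with 6 group means, a trend and robust moderation, and Benjamini-Hochberg adjustment over 10191 genes at 0.05. On the ERCC scale its prior degrees of freedom were 329 or more, and after rescaling 6.70 to 6.77. Named were fixed members of each role and the members with the lowest and highest called changes of each comparison. Alternatives were the rescaled values, edgeR 4.0.16 and DESeq2 1.42.0 on recovered reads, a pseudocount of 0.1, no filter, the highest interval of each gene, each library left out, and the replicate block. edgeR with TMM scaling called 14.9% of the tested genes higher and 15.9% lower in the nucleus. The scripts were tested on simulated data.

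The sample titles give a replicate number, and the block fits took this number as the batch. The titles do not say that same-numbered samples were made together. The correlations of same-numbered JQ1-VHL and DMSO deviations from the group means were 0.27, -0.14 and 0.29 in the nucleus, 0.06, -0.05 and 0.02 in the cytoplasm, and 0.22, 0.08 and 0.16 in total RNA.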

Additional observations from a re-analysis of the deposited data

Results flagged for a closer look

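COPG1 and SSRP1 were the 2 of the 60 genes whose JQ1-VHL effect differed between nucleus and cytoplasm by the interaction test on rescaled values. For COPG1 the nuclear minus cytoplasmic effect was -1.48 ± 0.31 (limma adjusted p = 0.0157). For the sum of its intervals all 3 JQ1-VHL libraries were below DMSO in the nucleus and all 3 above it in the cytoplasm. The intervals did not all change alike. In the nucleus interval 17 had -1.93, while intervals 22 and 23 had 0.75 and 0.34. In the cytoplasm these 3 had 0.25, 1.11 and 1.10. For SSRP1 it was -1.54 ± 0.36 (limma adjusted p = 0.0306). On the ERCC scale neither was called.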

How the results depend on the processing

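Many calls changed with the scale. On the ERCC scale 9 genes were called in the nucleus with a median of -1.43. Rescaling called 19 (median 0.44), edgeR with TMM 22 (median 0.29), DESeq2 25 (median 0.47), and the replicate block on rescaled values 22 (median 0.44). Of all tested genes, rescaling called 18.2% higher and 12.5% lower, TMM 14.9% and 15.9%, and DESeq2 23.5% and 16.2%. The block on rescaled values called 19.8% and 14.4%. Of the members fixed for each role, 8 had a nuclear estimate below 0 on the ERCC scale and were called higher in some of these settings. Under rescaling, with or without the replicate block, they were 1.25 for HSPA5, 1.74 for HSP90B1, 1.25 for CALR, 1.61 for CANX, 1.48 for SEC61A1, 0.92 for SRP54 and 1.56 for TMED10. Under edgeR with TMM they were 1.07 for HSPA5, 1.59 for HSP90B1, 1.09 for CALR, 1.47 for CANX, 1.30 for SEC61A1, 0.76 for SRP54 and 1.43 for TMED10. Under DESeq2 they were 1.26 for HSPA5, 1.79 for HSP90B1, 1.28 for CALR, 1.67 for CANX, 1.499 for SEC61A1, 0.96 for SRP54, 1.64 for TMED10 and 0.97 for RPN1.

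Against 0 called in the cytoplasm on the ERCC scale, rescaling called 18, edgeR with TMM 16, DESeq2 20, a pseudocount of 0.1 2, the highest interval 1, the replicate block 2, and the block on rescaled values 21. Rescaling called 14.8% of all tested genes higher and 15.9% lower there, TMM 14.94% and 14.38%, and DESeq2 17.23% and 18.34%. For the block on rescaled values these shares were 17.56% and 17.96%. On the ERCC scale the pseudocount called 0.3925% higher and 4.376% lower, the highest interval 0.2846% and 2.895%, and the block 0.3925% and 5.681%. Against 0 in total RNA the counts were 13 rescaled, 23 with TMM, 19 with DESeq2, 2 with the highest interval and 16 with the block on rescaled values. The shares of all tested genes called higher and lower were 12.2% and 18.3% rescaled, 21.3% and 16.1% with TMM. They were 15.7% and 25.7% with DESeq2, 0.52% and 5.79% with the highest interval, and 13.9% and 20.7% with the block on rescaled values. Against 0 for the nuclear minus cytoplasmic effect the counts were 2 rescaled (median 0.47), 2 with TMM, 5 with DESeq2 (median 0.42) and 2 with the block on rescaled values (median 0.47). The shares of all tested genes called higher and lower were 1.45% and 1.37% rescaled, and 1.05% and 2.33% with TMM. They were 5.89% and 3.56% with DESeq2, and 2.28% and 1.84% with the block on rescaled values. For nuclear against cytoplasmic RNA under JQ1-VHL, 23 became 47 rescaled (median 1.12), 44 with TMM (median 0.89), 50 with DESeq2 (median 0.98) and 48 with the block on rescaled values (median 1.12). Of all tested genes, rescaling called 38.7% higher and 26.0% lower, TMM 36.7% and 26.4%, and DESeq2 41.1% and 26.5%. The block on rescaled values called 39.8% and 26.5% there. Under DMSO, 10 became 35 rescaled, 37 with TMM, 36 with DESeq2, 18 with the highest interval and 35 with the block on rescaled values. The shares of all tested genes called higher and lower were 33.0% and 23.7% rescaled, and 36.7% and 23.1% with TMM. They were 36.3% and 26.4% with DESeq2, 23.6% and 13.7% with the highest interval, and 34.1% and 24.3% with the block on rescaled values.

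Leaving out 1 library at a time on the ERCC scale gave 0 to 13 calls in the nucleus and 0 to 4 in the cytoplasm. Those fits called 2.24% to 40.7% of all tested genes lower in the nucleus and 0.657% to 12.3% in the cytoplasm. For nuclear against cytoplasmic RNA under DMSO they gave 3 to 17 calls, and under JQ1-VHL a median of -1.24 to -0.0136. Under DMSO they called 4.34% to 18.1% of all tested genes higher and 2.05% to 18.3% lower. On rescaled values, a setting added after seeing the data, leaving out 1 library gave 10 to 23 calls in the nucleus and 7 to 10 in total RNA. In the cytoplasm it gave 11 to 19 calls with a median of 0.0087 to 0.45, and 0 to 5 calls for the nuclear minus cytoplasmic effect. Of all tested genes 12.2% to 17.9% were called higher and 6.6% to 12.8% lower in the nucleus. In the cytoplasm 9.63% to 17.0% were called higher and 11.5% to 16.3% lower. For the nuclear minus cytoplasmic effect 0.491% to 2.7% were called higher and 0.373% to 2.38% lower. Where a count or value moved, the cause was not tested. Over all settings and comparisons, the values of single genes kept direction and side of the threshold 1646 times, lost a call 106 times, gained one 70 times, changed sign with no call in either setting 129 times and changed sign with a call 29 times. Few reads limit SEC61G, PDIA4 and SEC31B.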
